A study of Mus musculus with 40 samples.

Results

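Undifferentiated mouse embryonic stem (ES) cells were compared with proliferating mesenchymal cell lines, cultured cells of the connective tissue, muscle and fat lineages. The samples were chosen by their labels: 14 of the 40 samples of the series, 3 of ES cells and 11 of the lines. The ES cells were the ZIN40 line, grown at low density in GMEM with fetal calf serum and LIF, the cytokine added to keep them undifferentiated. The lines were C3H-10T1/2, labelled a mesenchymal stem cell line (3 samples), C2C12 myoblasts in proliferation (3 samples), and the preadipocyte lines 3T3-L1 (2 samples), 3T3-F442A, Ob1774 and Hgfu (1 sample each), all kept from confluence for a few passages in DMEM with fetal calf serum. The proliferating C2C12 samples also carry a source name that calls them preadipocytes, and they were grouped by their title. Normalization and the error of the main tests drew on 37 arrays in 13 groups, 9 of them outside this comparison. Among these 9 are liver, tibialis muscle, isolated inguinal adipocytes and the macrophage lines described below. The rest are C2C12 and 3T3-F442A cells differentiated to day 7, and inguinal stroma-vascular cells and peritoneal macrophages 24 h after plating. The ES cells are 1 line, so the cell type cannot be told apart from the line, the medium and LIF. The labels do not say whether arrays of 1 group came from different cultures, so the tests weigh differences against a scatter between arrays that could be technical. In RNA from whole cultures, fewer cells that express a gene and less RNA per cell cannot be told apart.

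ES cells derive from the inner cell mass of the blastocyst and can form all tissues of the embryo. In mouse ES cells LIF signals through its receptor and gp130 to the transcription factor STAT3, which sustains the network of pluripotency genes around Oct4, Sox2 and Nanog. Mesenchymal lines are adherent cells that lay down extracellular matrix and build actin stress fibres, and the lines used here can be taken towards fat, muscle or cartilage.

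Each sample was 1 nylon filter with 5760 spots of mouse cDNA, hybridized with radioactively labelled cDNA and deposited as linear spot intensities. Values given per sample are quantile-normalized intensities in kilo-units (ku). Differences are log2 fold changes of ES cells over lines ± SE after an offset of 38423 was added to each intensity, which compresses the change of dim spots. The median intensity of an array ran from 47570 to 132228 in ES cells and from 20350 to 79021 in the lines. The ES arrays had a mean correlation of 0.902 to 0.918 with arrays of their own group, and the closest array of another group correlated with each of them at 0.939 to 0.951. None of the 14 ES cell markers looked for, among them Pou5f1, Nanog and Sox2, has a named spot here, so the ES label could not be checked with them. Of 14 mesenchymal markers 2 were measured, Prrx1 at 0.08 ± 0.13 and Lgals1, described below, and of 6 preadipocyte markers none was. On a wider list of 27 mesenchymal genes, which does not hold Lgals1, 7 were measured and none was called, with a median of -0.02. Eng, Nt5e and Prrx1 were at 0.13, 0.12 and 0.08, and Cdh2, Nrp1, Cd34 and Fgfr1 at -0.02, -0.18, -0.21 and -0.22. Of 6 myoblast markers Chrna1 and Msc were measured, and the summed intensity of both was 99.7 to 102 ku in ES cells and 88.1 to 153 ku in the lines. The summed intensity of 5 macrophage markers, of 8 looked for, was 264 to 282 ku in ES cells and 225 to 286 ku in the lines.

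ES cells differed from the mean of the 6 lines at 13 spots, 6 higher and 7 lower, 10 of them with a gene name. The strongest difference among named genes was Lgals1, galectin-1, which was lower in ES cells. Timp2, Selenof, Nfix, Sri, Acsl4 and Zbed3 were lower too, and Rpain, Ifitm1 and Epop were higher. These calls are limma tests with Benjamini-Hochberg adjusted p under 0.05 over all spots, and 0.226% of the 5760 spots tested were called, 0.104% higher and 0.122% lower. An unadjusted p under 0.05 was found at 353 spots (6.13%), with 3.16% of all spots higher and 2.97% lower. The 3 ES arrays did not overlap the 11 arrays of the lines at 42 spots (0.729%; 0.347% higher and 0.382% lower), and 12 of the 13 called spots were among them. The exception was Timp2. The split moved with the scaling, to 4 higher and 1 lower with median scaling, 0 and 4 with background subtraction, and 2245 and 1 with no scaling, where the median of all spots was 0.68. With median scaling Timp2, Selenof, Nfix, Sri, Acsl4 and Zbed3 lost their calls.

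**Figure D1:**
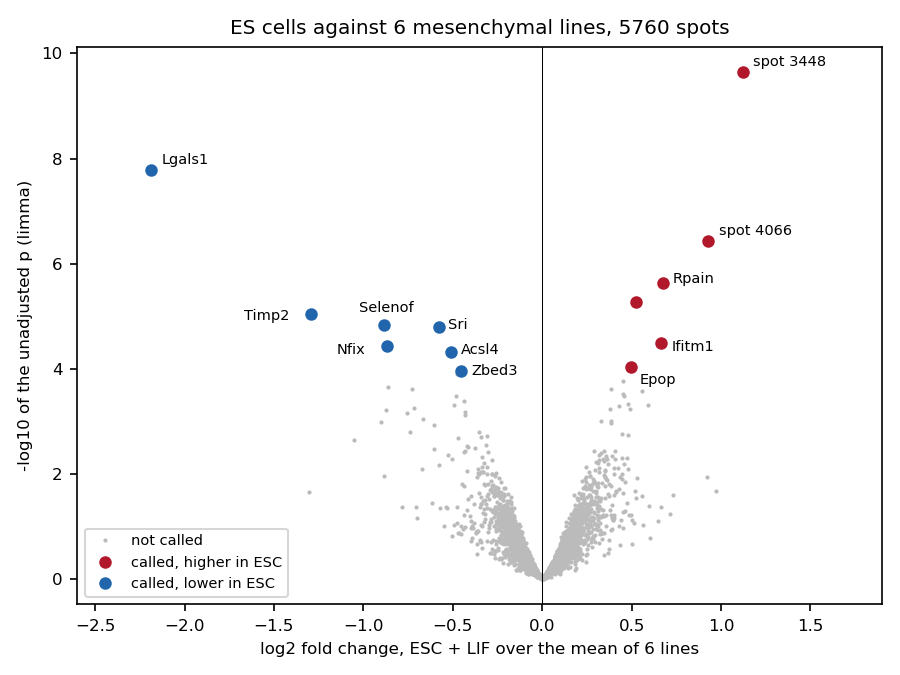
Log2 fold change of ES cells over the mean of 6 lines (x axis) against -log10 of the unadjusted limma p (y axis), 1 point per spot for 5760 spots. The 7 called spots on the left include Lgals1 at -2.19, and 6 called spots lie on the right, with 2 of the 3 unnamed ones labelled.

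Promoters of genes called in either direction are printed to show the sequence at their start sites. RefSeq entries (GRCm38.p6) were found for 8 of the 10 called genes, and each window spans 300 bases, mostly upstream of the start site. Capitals mark matches on either strand of the motifs searched: the GC box GGGCGG, the CCAAT box CCAAT, the TATA box TATAAA, the octamer ATGCAAAT, the STAT site TTCNNNGAA and the interferon response element, GAAA followed after any 2 bases by GAAA. Timp2 and Rpain had the largest fold change in each direction among the genes with an entry, and Ifitm1, also higher in ES cells, had no match.
Timp2 (chr11:118355362-118355661, minus strand): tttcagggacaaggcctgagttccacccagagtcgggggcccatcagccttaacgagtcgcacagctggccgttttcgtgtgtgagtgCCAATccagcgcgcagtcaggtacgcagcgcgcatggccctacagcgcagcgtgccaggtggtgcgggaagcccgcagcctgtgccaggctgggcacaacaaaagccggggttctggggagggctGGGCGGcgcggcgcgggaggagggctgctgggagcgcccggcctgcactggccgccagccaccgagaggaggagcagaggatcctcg
Rpain (chr11:70969949-70970248, plus strand): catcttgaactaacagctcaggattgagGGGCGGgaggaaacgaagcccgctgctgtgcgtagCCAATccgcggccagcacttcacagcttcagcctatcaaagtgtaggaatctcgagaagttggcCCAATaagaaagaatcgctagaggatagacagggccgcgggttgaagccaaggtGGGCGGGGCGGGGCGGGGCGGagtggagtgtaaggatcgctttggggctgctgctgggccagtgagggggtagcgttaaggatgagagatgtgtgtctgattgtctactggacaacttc
Ifitm1 (chr7:140967826-140968125, plus strand): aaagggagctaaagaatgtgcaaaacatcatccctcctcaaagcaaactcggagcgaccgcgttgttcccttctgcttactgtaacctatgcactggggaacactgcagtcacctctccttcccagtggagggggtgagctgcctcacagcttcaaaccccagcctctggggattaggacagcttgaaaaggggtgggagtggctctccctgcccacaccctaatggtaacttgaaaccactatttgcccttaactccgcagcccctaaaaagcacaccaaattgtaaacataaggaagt

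The Rpain window held 5 GC boxes, overlapping copies included, and 2 CCAAT boxes, and the Timp2 window 1 of each. Selenof had 2 of each, Acsl4 2 GC boxes and no CCAAT box, and Sri neither. Over all 32851 promoters of the table, 35.7% held a GC box, 37.4% a CCAAT box, 13.6% a TATA box, 1.74% an octamer, 8.3% a STAT site and 3.44% an interferon element. CpG counts were 33 in Acsl4, 29 in Selenof, 25 in Timp2, 16 in Rpain and 5 in both Ifitm1 and Sri, against a median of 7 over all promoters, with quartiles of 3 and 20. Nfix and Zbed3 have several start sites in the table and their windows are not printed. Window 2 of Nfix held 1 STAT site, and window 2 of Zbed3 held 1 TATA box and 1 interferon element. The other windows of called genes held none of these.

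Among the genes lower in ES cells, Lgals1 encodes a secreted lectin that binds galactosides on matrix and surface glycoproteins. Its intensity was 70.6, 99.5 and 105.5 ku in the ES arrays. It was 614, 863 and 510 ku in C3H-10T1/2, 749, 706 and 277 ku in C2C12, 571 and 284 ku in 3T3-L1, 679 ku in 3T3-F442A, 526 ku in Ob1774 and 555 ku in Hgfu. Every line array lay above every ES array, and the lowest of them were the third C2C12 and the second 3T3-L1 array. The log2 fold change was -2.19 ± 0.29 (adjusted p = 4.8e-05), and differences from single lines ran from -2.47 in 3T3-F442A to -1.78 in 3T3-L1.

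Timp2 encodes a secreted inhibitor of matrix metalloproteinases. It read 43.1, 73.9 and 50.2 ku in ES cells. The lines read from 53.2 ku, on the second 3T3-L1 array, to 399 ku, on the second C2C12 array, with a median of 192 ku. That lowest 3T3-L1 array lay below the highest ES array, so the groups overlapped. The fold change was -1.29 ± 0.24 (adjusted p = 0.0086). It was -0.40 against 3T3-L1 alone and between -1.76 and -1.01 against each of the others.

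Selenof encodes a selenoprotein of the endoplasmic reticulum that takes part in the quality control of glycoproteins. ES cells read 73.1, 79.4 and 69.5 ku and the lines 95.6 to 286 ku, with a median of 199.7 ku. C2C12, at 286, 244 and 258 ku, was among the highest, and 3T3-F442A was the lowest line. The fold change was -0.89 ± 0.17 (adjusted p = 0.012). Sri encodes sorcin, a calcium-binding protein that acts on calcium channels. It read 58.8, 55.4 and 45.1 ku in ES cells and 69.1 to 130.2 ku in the lines, a fold change of -0.58 ± 0.11 (adjusted p = 0.012). As for Selenof, the lowest line was 3T3-F442A, and no line array reached down to the ES arrays.

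Nfix, a transcription factor of the nuclear factor I family, was dim in ES cells, at 32.9, 32.5 and 35.7 ku, below the offset of 38423. The lines lay between 36.6 ku, the third C2C12 array, and 127 ku, with a median of 100.7 ku. The spread was wide within C3H-10T1/2 and within C2C12, where only the third array came close to ES cells. It was narrow among the preadipocyte lines, at 88.9 to 117 ku. The fold change was -0.87 ± 0.18 (adjusted p = 0.021). The ES mean of Nfix was the lowest of the 13 groups measured on the same scale.

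Acsl4, an acyl-CoA synthetase with a preference for arachidonic acid, read 39.2, 46.2 and 39.1 ku in ES cells and 50.6 to 98.8 ku in the lines. Its fold change of -0.51 ± 0.11 (adjusted p = 0.026) was small, yet the 6 lines lay close together, with an SD of 0.07 over lines. Zbed3, a zinc finger protein that binds axin in Wnt signalling, read 27.0, 38.0 and 28.6 ku in ES cells and 39.2 to 78.6 ku in the lines. Its fold change was -0.46 ± 0.10 (adjusted p = 0.049). The second ES array lay just below the lowest line array, the third of C3H-10T1/2, so the gap was narrow. The ES values of Zbed3 all lay below the offset of 38423.

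**Figure D2:**
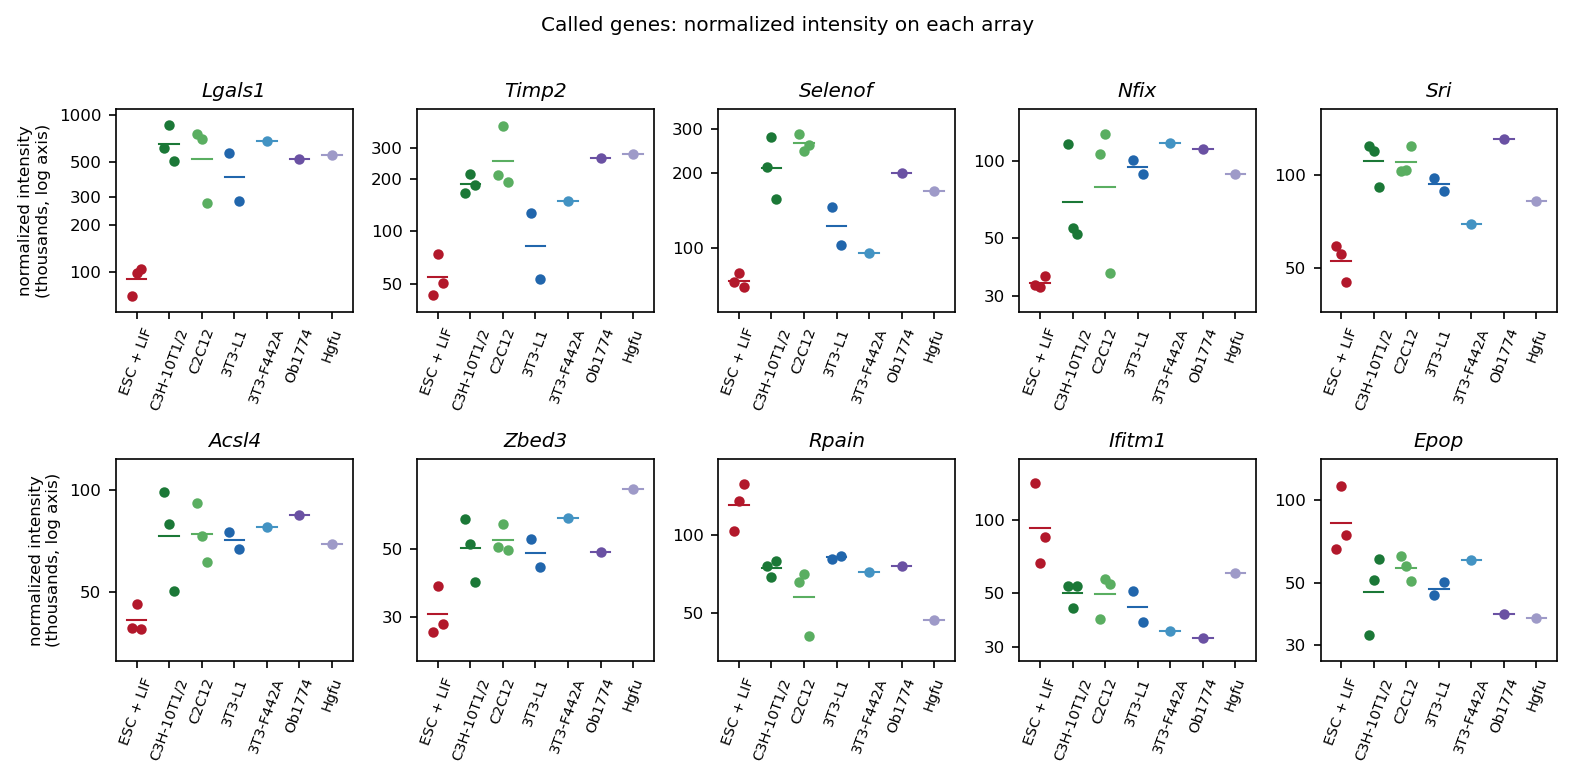
Quantile-normalized intensity in kilo-units (log axis) of the 10 called genes, 1 point per array, with bars at the geometric mean of each cell line. ES cells lie below all line arrays for 6 of the 7 lower genes, with overlap for Timp2, and above all of them for Rpain, Ifitm1 and Epop.

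Among the genes higher in ES cells, Rpain encodes a protein that carries replication protein A into the nucleus. It read 104, 135 and 156 ku in ES cells. In the lines it read 40.5 ku, on the third C2C12 array, to 82.8 ku, on the second 3T3-L1 array, with a median of 71.9 ku. The groups did not overlap, and the fold change was 0.67 ± 0.12 (adjusted p = 0.0033).

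Ifitm1, an interferon-induced membrane protein also known from early germ cells, read 141, 66.2 and 84.6 ku in ES cells. The ES arrays were spread widely, and the second one lay not far above the highest line array, that of Hgfu at 60.6 ku. The lines began at 32.8 ku in Ob1774. The fold change was 0.67 ± 0.14 (adjusted p = 0.021). Epop, which links elongin BC to the Polycomb repressive machinery, read 66.8, 113 and 74.9 ku in ES cells and 32.6 to 62.6 ku in the lines. Its fold change was 0.50 ± 0.11 (adjusted p = 0.045), and the first ES array lay close to the highest line array, the first of C2C12.

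The other 3 spots that were higher have no gene name here. Spot 3448 read 159, 183 and 206 ku in ES cells and 36.0 to 89.7 ku in the lines, a fold change of 1.12 ± 0.12 (adjusted p = 1e-06). Spot 4066 read 149, 147 and 170.5 ku in ES cells and 30.7 to 123 ku in the lines, at 0.93 ± 0.14 (adjusted p = 0.00071). Both 3T3-L1 arrays of spot 4066, at 117 and 123 ku, stood above all other line arrays.

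All 13 called spots had the same sign against each of the 6 lines taken alone. For 12 of them the lack of overlap between arrays fixed this in advance. With the lines as 6 replicates, so that the spread between lines entered the error, 5 spots were called (0.0868%), 1 higher (0.0174%) and 4 lower (0.0694%). Of these, 4 had been called before, namely Lgals1, Nfix, Acsl4 and spot 3448, and the fifth was Myl12a. Calls of the other 9 were lost there, with an adjusted p of 0.065 for Timp2 and Rpain, 0.14 for Selenof, Sri and Ifitm1, 0.20 for Zbed3 and 0.26 for Epop. Leaving out 1 array at a time, Lgals1 and spots 3448 and 4066 were called in all 14 fits, Rpain in 13 and Zbed3 in 3. The count was 8 without ES array 1, 7 without ES array 2 and 3 without ES array 3, and Rpain lost its call without ES array 3. When only the groups compared were fitted, 6 spots were called, and 11 with the replicate number as a random block added. In both of those fits Sri, Nfix, Ifitm1, Acsl4, Zbed3 and Epop were not called, with adjusted p of 0.072 to 0.175 with the block. With no scaling Selenof, Sri, Acsl4 and Zbed3 were above 0 but below the median of all spots.

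**Figure D3:**
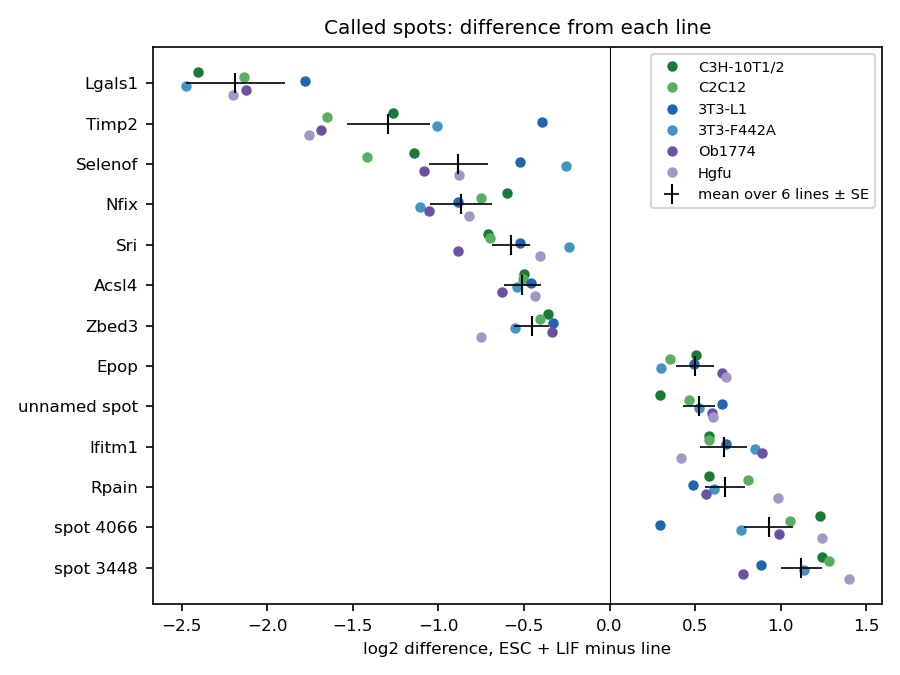
Log2 difference between the ES mean and each of the 6 lines (coloured points) for the 13 called spots, with the mean over lines ± SE of the limma fit in black. Every point keeps the sign of its mean, which the lack of overlap between arrays fixed in advance for 12 of the 13 spots. 3T3-L1 lies nearest to 0 for Timp2 and spot 4066.

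The place of a spot in the deposited table moved with the fold change. Over all spots the median was -0.05 in the first 2880 rows and 0.04 in the last 2880. All 6 spots called higher lay in the last 2880 rows, and of the 7 called lower all but Lgals1 lay in the first 2880. After a running median over the rows was removed from each array, 25 spots were called (0.434%; 0.208% higher and 0.226% lower), among them 11 of the 13. The calls of Acsl4 (-0.41, adjusted p = 0.062) and Zbed3 (-0.32, adjusted p = 0.092) were lost.

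Several genes stood just outside the threshold, and are given with no test of their own. Slpi, a secreted protease inhibitor, was at -0.48 and Aff1 at 0.46 (both adjusted p = 0.089). Rhoc, Cmtm3, Hepacam2 and Arf4 followed, at -0.44, -0.49, 0.43 and -0.72, with adjusted p of 0.11 for each. Zbed3 and Epop, at 0.049 and 0.045, were the called genes nearest to the threshold.

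The lists named for the actin cytoskeleton and contractility, ribosomal proteins, and metal binding and detoxification had the lowest medians of the lists examined after quantile normalization. With median scaling, with background subtraction and with no scaling, ribosomal proteins were not among the lowest 3. Of 60 genes on the actin list 11 were measured, with a median of -0.34, against a median of -0.001 over all spots. All 11 were below 0, also with median scaling and with background subtraction. With no scaling, where the median of all spots moved to 0.68, 10 of 11 were above 0 and all 11 were below that median. After the running median was removed 9 of 11 were below 0. Only Lgals1, which was put on this list as well as among the mesenchymal markers, was called. The list is broad and also holds Anxa5, Cav2, Cavin1, Lmna and Itgb1, and Itgb1 was its median member. Cnn3, Myh9 and Pdlim7 were at -0.15, -0.10 and -0.04, and Tmsb10 and Myl12a at -0.78 and -0.87.

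Myl12a, a regulatory light chain of non-muscle myosin, read 108, 105 and 109.9 ku in ES cells and 139 to 521 ku in the lines, with no overlap. Its fold change was -0.87 ± 0.23 (adjusted p = 0.11, and 0.043 with the lines as replicates). Anxa5, a calcium-dependent phospholipid-binding annexin, read 67.0, 63.1 and 50.2 ku in ES cells and 50.4 to 194 ku in the lines. It was at -0.67 ± 0.18 (adjusted p = 0.15), and 1 line array, that of Hgfu, fell among the ES arrays. Cavin1, a caveolar coat protein, was at -0.38 and Itgb1, the fibronectin receptor subunit, at -0.34 (both adjusted p = 0.80). Tmsb10, an actin-sequestering thymosin, ran from 113 to 258 ku in ES cells and from 154 to 749 ku in the lines (-0.78 ± 0.37, adjusted p = 0.80).

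Of 61 matrix and remodelling genes 13 were measured, with a median of -0.05, 10 below 0, and 1 of them, Timp2, was called. With median scaling none of the 13 was called, and their median was -0.016 against -0.006 over all spots. Col4a1, a basement membrane collagen chain, read 55.4 to 84.9 ku in ES cells and 55.2 to 154 ku in the lines (-0.42 ± 0.13, adjusted p = 0.34). Loxl1, a collagen and elastin crosslinking oxidase, was at -0.31 and Serpinh1, the collagen chaperone, at -0.29 (both adjusted p = 0.80). Mmp2, the gelatinase, was at -0.02, and Igfbp4 at 0.31 (adjusted p = 0.81).

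Of 40 genes of metal binding and detoxification 6 were measured, all 6 below 0 and none called, with a median of -0.24. All 6 were also below 0 with median scaling, with background subtraction and after the running median was removed, and with no scaling all 6 were above 0 and 5 were below the median of all spots. Background subtraction put this list's median at -0.89, below the -0.81 of the actin list. Prdx4, a peroxiredoxin of the endoplasmic reticulum, was at -0.31 ± 0.13 (adjusted p = 0.74) and the metallothionein Mt1 at -0.18 ± 0.23 (adjusted p = 0.92).

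All 9 ribosomal protein genes measured were below 0, with a median of -0.34, and none was called. With median scaling 8 of 9 were below 0, and with no scaling all 9 were above 0 and 4 were below the median of all spots. Rpl15 read 166, 132 and 143.5 ku in ES cells and 158 to 609 ku in the lines (-0.61 ± 0.19, adjusted p = 0.37). Of 12 genes of oxidative phosphorylation 10 were below 0 and none was called, with a median of -0.18, and with no scaling all 12 were above 0 and 8 were below the median of all spots. Cox6a1, a cytochrome oxidase subunit, read 63.0 to 110.1 ku in ES cells and 98.1 to 242 ku in the lines (-0.53 ± 0.25, adjusted p = 0.80). Over the 576 brightest spots, where 5 of the 9 ribosomal and 4 of the 11 actin list genes lay, the median fold change was 0.02. The fold change moved with brightness: 43.6% of the brightest spots were below 0, against 79.7% of the 576 dimmest, where the median was -0.075.

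**Figure D4:**
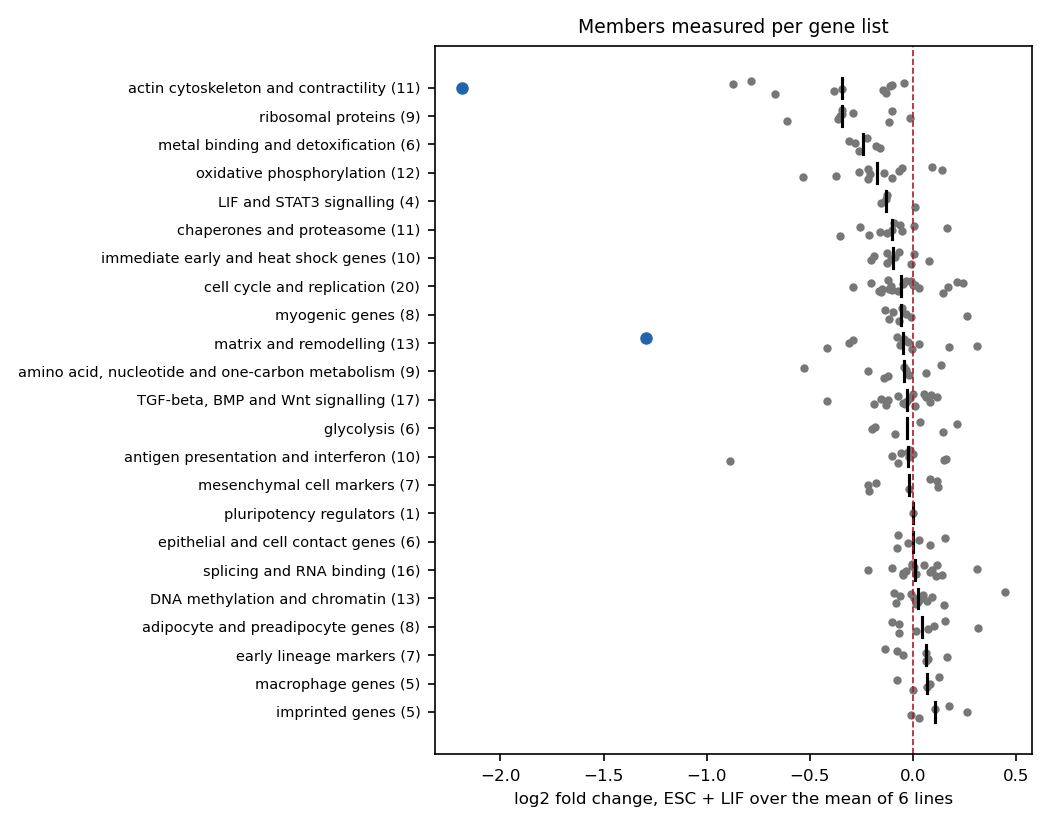
Log2 fold change of ES cells over the mean of 6 lines for each measured member (point) of 23 gene lists, with the list's median (black bar) and the median of all spots (dashed line). The number measured stands beside each name, called genes are in blue, and the actin list has the lowest point, Lgals1 at -2.19.

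Few genes of the pluripotency network were on the filters. Of 36 pluripotency regulators only Klf2, a Krüppel-like factor that supports naive pluripotency, was measured. It read 43.4, 48.3 and 58.5 ku in ES cells and 39.0 to 63.3 ku in the lines, with a fold change of -0.00 ± 0.10 (adjusted p = 0.9998). Of 18 genes of LIF and STAT3 signalling 4 were measured and none was called. The adaptor Grb2 was at -0.13, the transcription factor Myc at -0.13, the NF-kappaB cofactor Bcl3 at 0.01 and the cyclin Ccnd1 at -0.16.

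Of 29 early lineage markers 7 were measured and none was called. Gata4 was at 0.17, Dab2 at 0.08, Mixl1 at 0.07, Cdx2 at 0.06, Lhx1 at -0.05, Sox17 at -0.08 and Ttr at -0.13. All 7 had overlapping arrays, and the SEs ran from 0.10 to 0.13.

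Tet1, an oxygenase that converts methylcytosine to hydroxymethylcytosine, had the largest value of the 13 measured genes of DNA methylation and chromatin. It read 89.3, 104 and 149 ku in ES cells and 50.7 to 102 ku in the lines, with a median of 75.2 ku. The lowest ES array lay below the second 3T3-L1 and the third C3H-10T1/2 array, and the fold change was 0.45 ± 0.15 (adjusted p = 0.42). Ezh2, the Polycomb methyltransferase, was at -0.08 and Cbx5, a heterochromatin protein, at 0.15, and none of the 13 was called. Among imprinted genes Igf2, a fetal growth factor, was at 0.26 ± 0.10 (adjusted p = 0.55) and Peg3 at 0.18 (adjusted p = 0.85).

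Against C3H-10T1/2 alone 12 spots were called (0.208%), 2 higher (0.0347%) and 10 lower (0.174%). The split was 2 and 1 with median scaling, 2 and 0 with no scaling and 0 and 1 with background subtraction. Lgals1 (-2.41 ± 0.35), Tm4sf1, a tetraspanin-like surface protein (-1.63 ± 0.30), Myl12a (-1.29 ± 0.27), Selenof (-1.14 ± 0.21) and Rpl15 (-1.12 ± 0.23) led the genes that were lower. Sri (-0.71), Ltbp1, which tethers latent TGF-beta to matrix (-0.70), and the actin-bundling Pls3 (-0.59) followed, with adjusted p between 0.00018 and 0.042 for these 8. Genes named for a single kind of line lie outside the naming rule and were chosen after their values were seen.

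Same-numbered ES and C3H-10T1/2 arrays deviated together from their group means, and with the replicate number as a block, in a fit of the ES, C3H-10T1/2 and C2C12 arrays, 35 spots were called (0.608%), 5 higher (0.0868%) and 30 lower (0.521%). All 12 spots called without the block in the fit of all groups were among them. The pairing was read from these same arrays and the labels do not state it, so the added calls are no separate support. ES and C2C12 arrays of the same number did not deviate together (r = 0.222, 0.132 and -0.0587). B2m, the light chain of MHC class I, was called there (-1.10 ± 0.11, adjusted p = 0.00023). It was not called in the fit of all groups without the block, where the SE was 0.39 and the adjusted p 0.73. The arrays fitted differed there as well as the block. B2m read 75.9, 67.3 and 76.3 ku in ES cells and 198, 224 and 181 ku in C3H-10T1/2. Timp2 (-1.27, adjusted p = 0.00028) and Copz2 (-1.17, adjusted p = 0.018) were called with the block too. Their adjusted p was 0.064 and 0.090 in the fit of all groups without it. Without the block, 13 spots were called when ES and C3H-10T1/2 arrays alone were fitted, and 16 with the C2C12 arrays added. The block with ES and C3H-10T1/2 arrays alone gave 28. In the fit of all groups, 3 calls were left without C3H-10T1/2 array 2, 22 without C3H-10T1/2 array 3, and 6 without ES array 2 or ES array 3.

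Against C2C12 myoblasts 22 spots were called (0.382%), 3 higher (0.0521%) and 19 lower (0.33%). With median scaling 3 were higher and 2 lower, with no scaling 1 and 0, and with background subtraction 0 and 4. Lgals1 (-2.14), Timp2 (-1.65), Selenof (-1.42), Ltbp1 (-0.72) and Sri (-0.70) were lower and Rpain (0.81) was higher. H19, an imprinted non-coding RNA abundant in fetal muscle, was lower by far more than in the comparison with the 6 lines, at -1.66 ± 0.18 (adjusted p = 1.8e-06) against -0.01. It read 74.5, 60.4 and 52.1 ku in ES cells, 397, 275 and 196 ku in C2C12 and 33.7 to 55.1 ku in all other line arrays. C2C12 stood above ES cells, and of the other line arrays only that of Hgfu lay within the ES range.

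Eno3, the muscle enolase, read 70.8, 67.9 and 65.8 ku in ES cells and 151, 268 and 140.2 ku in C2C12 (-1.03 ± 0.18, adjusted p = 0.0020). Fcsk, a fucose kinase, read 45.3, 53.4 and 45.2 ku in ES cells and 103, 107 and 117 ku in C2C12 (-0.77 ± 0.13, adjusted p = 0.0011). The coatomer subunit Copz2 was lower by 1.46 on the log2 scale (-1.46, adjusted p = 0.0068). The muscle cofilin Cfl2 (-0.68), the electron transfer flavoprotein subunit Etfa (-0.58) and the endoplasmic reticulum transporter Slc35b1 (-0.48) were lower as well.

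Without the third ES array 12 spots were called against C2C12. The difference between lines was tested for these genes in the same fit. C2C12 exceeded the other 5 lines at 10 spots (0.174%) and lay below them at 0, and H19 (1.99 ± 0.16, adjusted p = 9.7e-10), Eno3 (1.00 ± 0.16, adjusted p = 0.00082) and Fcsk (0.72 ± 0.11, adjusted p = 0.00082) were among the 10. Cfl2 (0.53, adjusted p = 0.057), Etfa (0.46, adjusted p = 0.083) and Copz2 (0.95, adjusted p = 0.18) did not pass that test.

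**Figure D5:**
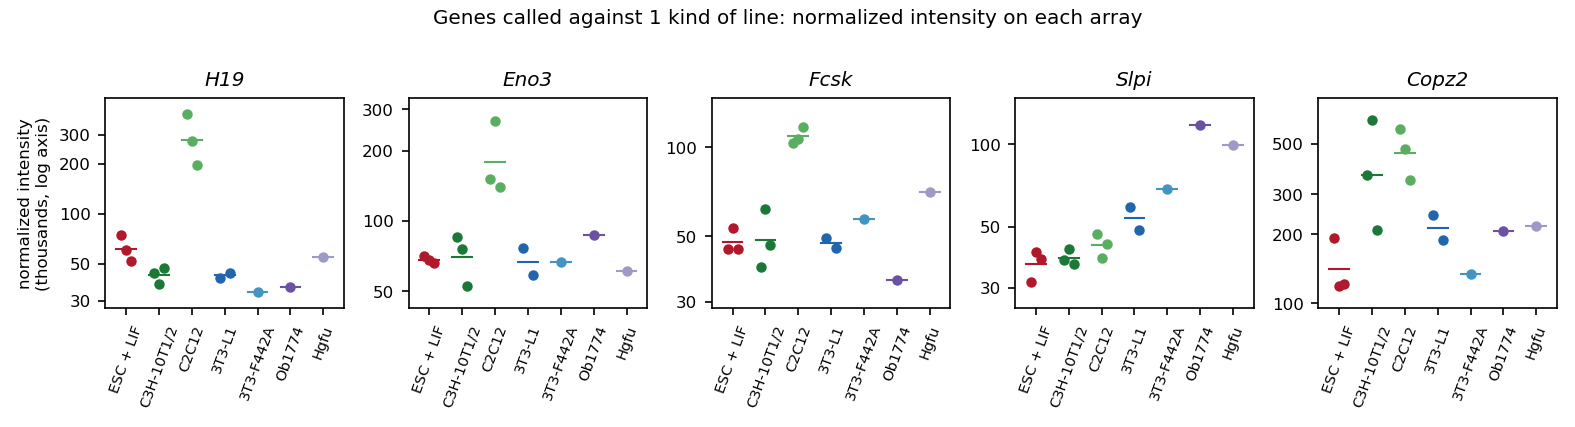
Quantile-normalized intensity in kilo-units (log axis) of 5 genes called against 1 kind of line, 1 point per array, with bars at the geometric mean of each cell line. C2C12 stands above all other arrays for H19, Eno3 and Fcsk, and Ob1774 and Hgfu have the highest values of Slpi.

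Against the 4 preadipocyte lines 9 spots were called (0.156%), 5 higher (0.0868%) and 4 lower (0.0694%). The split became 4 and 1 with median scaling, 1704 and 0 with no scaling and 0 and 4 with background subtraction. Lgals1 (-2.14), Nfix (-0.97 ± 0.19, adjusted p = 0.031) and Slpi (-0.69 ± 0.13, adjusted p = 0.016) were lower, and Rpain (0.66, adjusted p = 0.016) and Ifitm1 (0.71, adjusted p = 0.043) were higher. Slpi read 31.5, 40.4 and 38.3 ku in ES cells, 36.7 to 47.3 ku in C3H-10T1/2 and C2C12, and 59.1 and 48.8 ku in 3T3-L1, 68.4 ku in 3T3-F442A, 118 ku in Ob1774 and 99.5 ku in Hgfu. There were 5 calls without ES array 1, 4 without ES array 2, 2 without ES array 3 and 20 without the second 3T3-L1 array. For Slpi the preadipocyte lines exceeded C3H-10T1/2 and C2C12 by 0.61 ± 0.11 (adjusted p = 0.014). In that test 3 spots differed (0.0521%), 1 higher (0.0174%) and 2 lower (0.0347%). With the preadipocyte, C2C12 and C3H-10T1/2 comparisons side by side, Lgals1 and spots 3448 and 4066 were called in each of them, and the comparisons share the ES arrays.

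The macrophage lines Raw 264 and J774, proliferating cells of another lineage, gave 33 called spots against the same ES arrays (0.573%), 10 higher (0.174%) and 23 lower (0.399%). Median scaling turned the balance, to 29 higher and 21 lower, and array weights gave 122 and 82, while background subtraction gave 1 and 5 and no scaling 1 and 0. The count was 18 without ES array 1 or J774 array 1, and 11 without ES array 3. Lgals1 was lower there as well (-1.53, adjusted p = 0.010), and Rpain was higher (0.66, adjusted p = 0.0053). Timp2 (-0.60), Selenof (-0.74), Nfix (-0.27), Sri (-0.30), Acsl4 (-0.36), Zbed3 (-0.35), Ifitm1 (0.43) and Epop (0.46) were not called there, with adjusted p from 0.056 to 0.68. B2m was at -1.63 (adjusted p = 0.019) against macrophage lines and at -0.89 (adjusted p = 0.58) against the 6 mesenchymal lines.

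Across all 13 groups of the fit, the ES means of Rpain, Ifitm1 and Epop were the highest. Beside ES cells and the lines, these are the 9 groups listed at the start. On the log2 scale Rpain was at 17.36 in ES cells and 16.88 in the next group, inguinal stroma-vascular cells. Ifitm1 was at 17.01 against 16.71 in J774, and Epop at 16.89 against 16.55 in stroma-vascular cells. Against the mean of the other 9 groups, the same ES arrays gave 0.68 ± 0.11 for Rpain (adjusted p = 0.00069), 0.62 for Ifitm1 (adjusted p = 0.011) and 0.47 for Epop (adjusted p = 0.025), where 0.312% of spots were called, 0.156% in each direction. The ES mean of Lgals1, at 16.98, was the fourth lowest, above liver at 16.52, and its value against the other 9 groups was -0.63 (adjusted p = 0.82).

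The 3 arrays of ZIN40 cells grown without LIF hold intensities on another scale and were compared by rank only, as the share of spots on an array that a spot exceeds. Lgals1 ranked at 81.0%, 76.2% and 41.1% without LIF, 73.9%, 88.2% and 89.3% with LIF, and at least 94.5% in the lines. Nfix ranked at 37.3%, 16.9% and 14.6% without LIF, 2.7%, 2.4% and 5.7% with LIF and 7.0% to 91.4% in the lines. Epop ranked at 6.2%, 33.7% and 34.8% without LIF, below its 69.7%, 90.2% and 77.8% with LIF. Rpain was at 78.4% to 93.0% without LIF and 89.0% to 92.8% with LIF. No test was made of these ranks, because the processing of the arrays without LIF differs and cannot be told apart from the loss of LIF.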

How the data were processed

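Total RNA of the 14 samples compared was hybridized to nylon cDNA filters and, per the labels, labelled with 33P. The deposited values are linear spot intensities read with Imagene. Normalization and background handling are not stated. The lowest deposited value of 37 arrays was 7675. The 3 arrays of ES cells without LIF, on another scale, stayed out of the fit. The other 37 arrays (13 groups) were quantile-normalized. An offset of 38423 (the 10th percentile of the normalized intensities) was then added and log2 taken of the sum. The 2 arrays of 3T3-L1 were averaged. Moderated two-sided tests of limma (version 3.58.1, under R 4.3.3) with 23 residual degrees of freedom were run on each of 5760 spots, with Benjamini-Hochberg adjustment and calls at adjusted p under 0.05. The fit was tested on simulated data. The number of arrays limits the precision.

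Of the spots, 3420 have 1 gene, 98 several and 2242 none in the platform's annotation, and only the first kind was named. The rule named called genes without overlap between groups, called list members and the list members of smallest p, and fixed markers; Timp2 entered as a called list member. The members and lists were chosen with earlier results of these data known. Same-numbered ES and C3H-10T1/2 arrays deviated together (r = 0.388, 0.635 and 0.618), a pairing that comes from the data, while ES and C2C12 arrays did not (0.222, 0.132 and -0.0587). Alternatives changed the scaling, background, offset, floor, filter, spot rule, variance model, array weights, arrays fitted, row trend and block, and left out each ES and mesenchymal array and each of the 6 lines, and, added after seeing the data, each macrophage array for the comparison with those lines.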

Additional observations from a re-analysis of the deposited data

Results flagged for a closer look

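H19 was 1.99 higher on the log2 scale in C2C12 than in the other lines, so its value against ES cells differed between lines, and the preadipocyte lines stood at -1.01 relative to C3H-10T1/2 and C2C12 (limma, adjusted p = 0.00027). The latter rests on C2C12, since the mean log2 level was 16.29 in the preadipocyte lines, 16.31 in C3H-10T1/2 and 18.28 in C2C12. Eno3 was 1.0 and Fcsk 0.72 higher in C2C12 than in the other lines. Slpi was 0.61 higher in the preadipocyte lines than in C3H-10T1/2 and C2C12. For Copz2, 3T3-F442A was below the other 3 preadipocyte lines, at 134.0 ku against 189 to 242 ku on their arrays. Both of those ends are arrays of 3T3-L1, which were averaged first. The gap to the next line was then 0.895 of the range of the 4 lines. The limit that such a gap has to pass is passed by chance in about 1 in 20 groups. It was applied to the highest and the lowest line of many called spots.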

How the results depend on the processing

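Counts of called spots (higher and lower) depended on the processing; the cause was not tested. Against the 6 lines, 13 became 5 (4 and 1) with median scaling, 2246 (2245 and 1) with no scaling, where the median of all spots was 0.683, 4 (0 and 4) with background subtraction, 6 (2 and 4) with only the groups compared, 5 (1 and 4) with lines as replicates, 26 (10 and 16) with array weights, 25 (12 and 13) with the row trend removed and 21 (7 and 14) with source types weighted equally. Against C3H-10T1/2, 12 became 3 with median scaling, 2 with no scaling and 1 with background subtraction. With the replicate block, 35 were called in a fit of ES, C3H-10T1/2 and C2C12 arrays and 28 with ES and C3H-10T1/2 arrays alone. Against C2C12, 22 became 5, 1 and 4 with those scalings in the same order, 40 with array weights and 34 with the replicate block, although these numbers do not pair the samples and only ES, C3H-10T1/2 and C2C12 arrays were fitted. Against preadipocyte lines, 9 became 5, 1704 and 4, then 2 with only the groups compared, 17 with array weights and 17 with the row trend removed. Against macrophage lines, 33 became 50 (29 and 21), 1 and 6, and 204 (122 and 82) with array weights. Leaving out 1 ES or mesenchymal array or line, or 1 macrophage array for the last comparison, gave 3 to 17 calls against the 6 lines, 3 to 22 against C3H-10T1/2, 12 to 35 against C2C12, 2 to 20 against preadipocyte lines and 11 to 46 against macrophage lines.

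With no scaling, 8 gene values turned sign: Zbed3 (0.025), Sri (0.132), Acsl4 (0.103) and Selenof (0.040) against the 6 lines, Rpl15 (0.178) and Ltbp1 (0.039) against C3H-10T1/2, Slc35b1 (0.118) against C2C12 and Slpi (0.068) against preadipocyte lines. Of 1346 recomputed values over 39 gene results, 1066 kept direction and side of the threshold and 272 kept the direction but lost the call. Many of these fits left out arrays outside the comparison, where the fold change could not move, so the counts do not measure how stable the results are. Added as a random block to the fit of only the groups compared, the replicate number gave 11 calls against the 6 lines (4 and 7), 7 of them among the 13. With the block, in the fit of only ES, C3H-10T1/2 and C2C12 arrays, Slc35b1 lost its call against C2C12. Leaving out the C3H-10T1/2 line gave the 35 calls against C2C12. The offset added to each intensity compresses the differences of dim spots.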
